A study of Homo sapiens with 9 samples.

Results

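The sites described here are positions in the genome of HEC-1-B cells where ZNF143, CTCF and cohesin were found together and where ZNF143 was still found after CTCF had been targeted for degradation. HEC-1-B is an established human uterine adenocarcinoma line. The sites were chosen by overlap of deposited peak lists: each is a wild-type ZNF143 peak on chromosomes 1 to 22 or X that overlapped a wild-type CTCF peak, a wild-type RAD21 peak and a ZNF143 peak of auxin-treated CTCF-AID cells, each by at least 1 bp. They are called kept sites below. There were 5946 of them among 36770 wild-type ZNF143 peaks, and among 26102 ZNF143 peaks that overlapped both CTCF and RAD21 (triple sites). The other 20156 triple sites, which had no ZNF143 peak after auxin, are called not kept.

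The 9 lists came from ChIP-nexus, a form of chromatin immunoprecipitation in which exonucleases digest the recovered DNA up to the crosslinked protein, so that the summit of a peak lies close to the bound position. Wild-type cells had lists for ZNF143, CTCF and RAD21, and cells of genotype ZNF143KO had lists for CTCF and RAD21. Cells of genotype CTCF-AID had lists for ZNF143 and CTCF at 0 h of auxin (IAA) and at 24 h, with auxin at 500 µM. In these cells CTCF is fused to a tag that auxin uses, through the plant receptor TIR1, to send the protein to the proteasome. All groups were HEC-1-B or lines derived from it, the labels do not say how many clones each derived line represents, and each group had 1 library. No difference below therefore has a replicate check, no significance test between conditions was possible, and the intervals given cover counting error over sites only. The knockout and the loss of CTCF protein were taken from the labels.

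ZNF143 is a zinc-finger transcription factor best known at promoters, where it binds a long DNA element and activates transcription of protein-coding and small RNA genes. CTCF is a zinc-finger protein that binds a longer DNA motif and stops the cohesin complex, which extrudes chromatin loops; RAD21 is the subunit that closes the cohesin ring. Many ZNF143 peaks in human cells coincide with CTCF and cohesin, and whether ZNF143 contacts the DNA there itself or is crosslinked through its neighbours is a standing question in the field. Gene annotation and sequence of build hg19 were not used here, so sites are given by position on hg19 without gene names.

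The files give no read totals. From the deposited ratio of a summit over its local background and the −log10 p, the read count at each summit and the local background were solved under a Poisson model, a form assumed rather than stated. The most frequent background corresponded to 5.96 reads per kb in the wild-type ZNF143 library, 13.55 in ZNF143 at 0 h, 12.1 in ZNF143 at 24 h, 12.75 in CTCF at 0 h and 3.88 in CTCF at 24 h. It was 8.63 and 7.81 in wild-type CTCF and RAD21 and 18.9 and 26.1 in the knockout libraries. Summit counts could not pass a ceiling that ranged from 42 to 88 reads between lists. The calling thresholds differed too: peaks of the 2 knockout lists began at a −log10 q of 5, those of the other 7 lists at about 3.

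Kept sites fell into 3 groups of unlike character. At 547 of them (9.20%, 8.48 to 9.96) the local background of the wild-type ZNF143 library was at least 1.61 reads, which is 10 times its most frequent value. This limit was set after the values were seen. The other 5399 had an ordinary background, and of these 4814 also had a CTCF peak at 24 h and 585 did not. Most sites were thus still listed for both proteins after auxin, a small set was listed for ZNF143 but not CTCF, and another small set lay where the wild-type ZNF143 background was high. The division is not sharp. With a limit of 5 times, 973 kept sites would count as high background. The 585 sites had a median wild-type ZNF143 background of 0.448 reads (upper quartile 0.810), against 0.324 (0.429) at the 4814. The part of such raised background in the set of 585 was not tested. The following paragraphs give the values of these groups.

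Across the 5 lists that the choice of sites did not use, kept sites nearly always carried peaks. A CTCF peak of the ZNF143 knockout was found at 97.6% of kept sites (97.2 to 98.0) and at 99.8% of sites not kept, against 73.1% of all wild-type ZNF143 peaks. A RAD21 peak of the knockout was found at 97.5% (97.1 to 97.9) and 99.6%, against 74.5% of all. Kept minus other sites, this came to -2.20 percentage points for knockout CTCF (-2.62 to -1.83) and -2.10 for knockout RAD21 (-2.54 to -1.72). Among sites of ordinary background they shrank to -0.777 and -0.355 points. With a reciprocal overlap of 50% required throughout, both turned positive, to 15.4 and 12.3 points, so neither direction held under that criterion. That criterion also depends on peak widths. Median wild-type ZNF143 widths were 87 bp at kept sites and 61 bp at the others. Knockout widths were 167 and 148 bp for CTCF and 204 and 174 bp for RAD21. The part of width in the reversal was not tested.

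ZNF143 was listed before auxin in CTCF-AID cells at 99.4% of kept sites (99.2 to 99.6) and at 61.2% of sites not kept (60.6 to 61.9), against 73.1% of all wild-type ZNF143 peaks. That is a difference of 38.2 points (37.5 to 38.9). For 7815 of the 20156 sites not kept, then, the ZNF143 peak was already missing from the untreated line. CTCF was listed at 0 h at 97.1% of kept sites (96.7 to 97.5) and 89.0% of the others, against 65.9% of all, a difference of 8.09 points. After 24 h of auxin a CTCF peak was listed at 87.8% of kept sites (86.9 to 88.6) and at 39.4% of sites not kept (38.7 to 40.1), against 36.1% of all. The difference of 48.4 points (47.3 to 49.5) was the largest of the 5.

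Part of these gaps went with the strength of ZNF143 itself. When the sites not kept were weighted to the kept sites' distribution over 10 groups of wild-type ZNF143 ratio, the difference was 16.99 points for ZNF143 at 0 h, 1.07 for CTCF at 0 h and 26.5 for CTCF at 24 h. Within groups of ordinary background the share with a 24 h CTCF peak was higher at kept sites in the weakest group (37.9% of 29 against 11.2% of 2521) and in the strongest (89.9% of 1696 against 79.0% of 854). The 24 h CTCF library had the lowest background density of all 9, and no CTCF peak in it does not show that CTCF was absent.

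**Figure D1:**
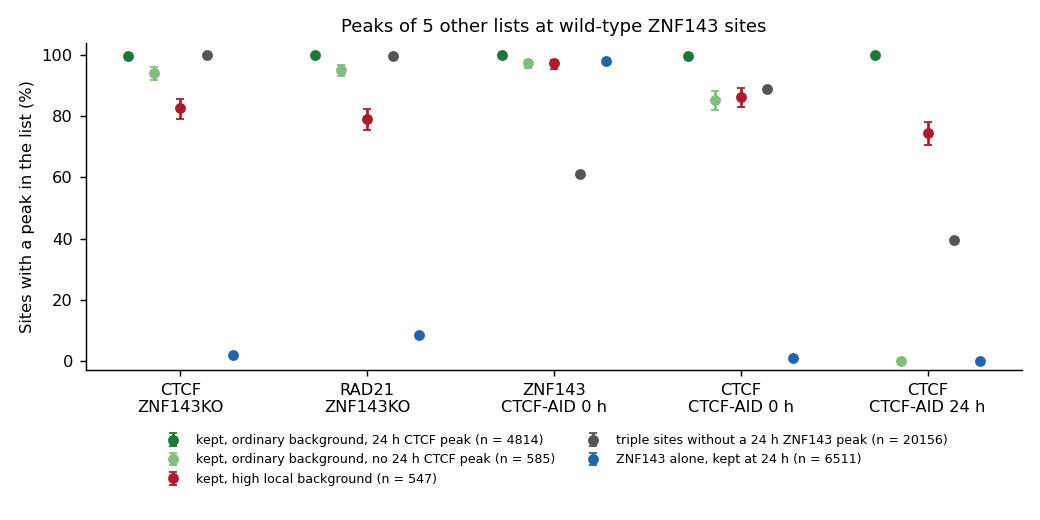
Share of sites (vertical axis, %) with a peak in each of 5 lists (horizontal axis) for the 3 groups of kept sites, triple sites not kept, and ZNF143 peaks with neither CTCF nor RAD21 that kept ZNF143; bars are exact 95% intervals over sites. Kept sites with a 24 h CTCF peak sit above 99% in every list, high-background sites between 74.4% and 97.3%; the 100% and 0% points for CTCF at 24 h in the 2 ordinary groups are fixed by their definition.

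Of the kept sites, 5096 (85.7%, 84.8 to 86.6) had a peak in all 9 lists. A further 549 (9.23%) lacked only the 24 h CTCF peak. CTCF was missing from both CTCF-AID lists, with every other list holding a peak, at 59 sites (0.992%). None of the 5 lists had a peak at 6 sites. Where all 9 lists had a peak, the 9 summits spanned a median of 42 bp at the 4788 sites of ordinary background (quartiles 32 and 52) and 14 bp at the 308 of high background (8 and 65.2).

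In wild-type cells kept sites were the stronger ZNF143 sites. Their median ratio was 14.1 (quartiles 11.4 and 16.8) against 9.47 (7.48 and 12.1) at sites not kept, and the median summit counts were 19 and 11 reads. The interquartile ranges overlapped. CTCF differed less, with medians of 23.5 and 20.3, and RAD21 least, with 21.4 and 19.7. The share kept rose with the ZNF143 ratio. At ordinary background 1.14% of sites in the weakest of 10 groups were kept (0.763 to 1.63), 10.2% in the fifth group and 66.5% in the strongest (64.6 to 68.3). Over all 26102 triple sites the share kept was 22.8% (22.3 to 23.3), and over all wild-type ZNF143 peaks 36.2% overlapped a 24 h ZNF143 peak; that contrast chose the sites, and nothing is read from it.

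The wild-type CTCF ratio gave another shape. At ordinary background, 19.2% of triple sites in the weakest of 10 CTCF groups were kept (17.7 to 20.8), 6.63% and 6.47% in the next 2 groups, and the share then rose to 46.8% in the strongest (44.9 to 48.8). RAD21 behaved likewise, with 23.1% in the weakest group, 12.2% in the group with the lowest share and 33.9% in the strongest. With high-background sites included, 36.8% were kept in the weakest CTCF group. The part of moderately raised background in the share at ordinary background was not tested. Split into 5 quintiles of each ratio, the share was higher in the weakest CTCF quintile than in the second one within every quintile of ZNF143. In the highest ZNF143 quintile, 81.7% of the 224 sites in the weakest CTCF quintile were kept (76.0 to 86.5), against 53.2% of 299 in the second (47.4 to 58.9), 49.4% in the fourth and 59.6% in the strongest. In the middle ZNF143 quintile the values were 22.9% in the weakest CTCF quintile, 7.41% in the second and 21.1% in the strongest. Kept sites with strong ZNF143 and strong CTCF were the more numerous, with 1460 in the highest quintile of both, against 183 in the highest ZNF143 and weakest CTCF quintile. All these ratios come from lists that took part in the choice of sites and are given as a description.

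**Figure D2:**
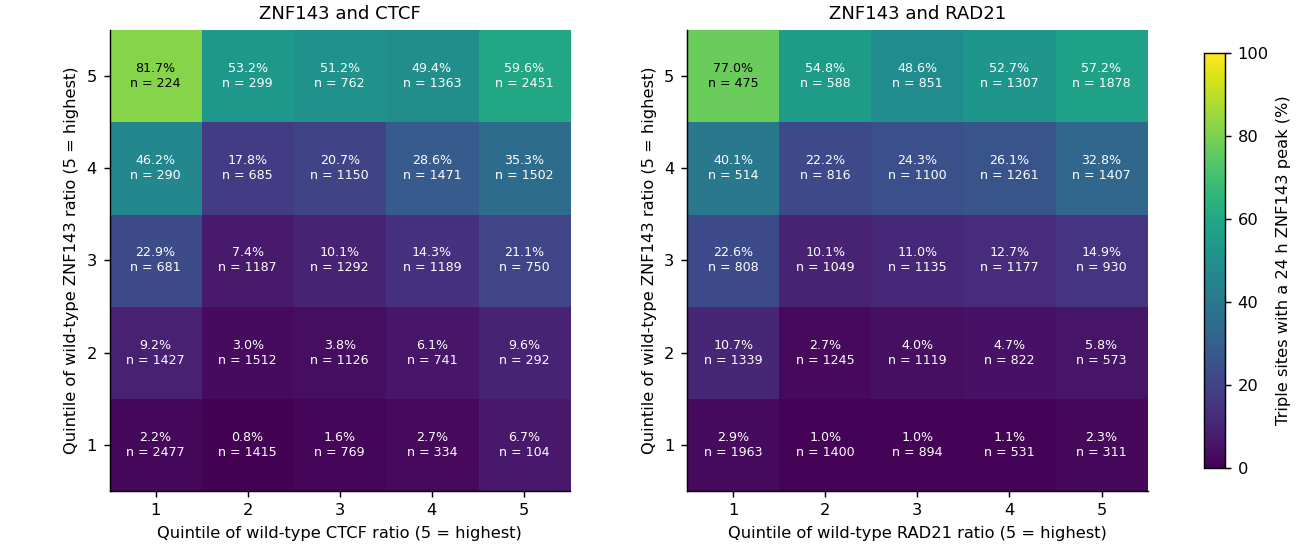
Share of triple sites of ordinary background with a 24 h ZNF143 peak (colour and printed value, %, with the number of sites) by quintile of the wild-type ZNF143 ratio (vertical axis) and quintile of the wild-type CTCF or RAD21 ratio (horizontal axis). The share rises upward in every column, and within each row it is higher in the weakest CTCF or RAD21 quintile than in the second.

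ZNF143 at kept sites was listed after auxin but mostly at a lower level. The median summit count was 31 reads at 0 h (quartiles 25 and 38) and 12 at 24 h (9 and 19). The deposited ratio had medians of 16.2 and 8.09. On the scale of the summit counts, the most frequent background was 0.42 reads at 0 h and 0.351 at 24 h. Per site, the 24 h count was a median 0.424 of the 0 h count (quartiles 0.342 and 0.625). It was below 0.5 at 63.4% of 5911 sites and at or above 1 at 4.08%. The counts were not scaled for the lower background at 24 h. A count ratio somewhat below 1 therefore need not mean less ZNF143 relative to background. These 24 h values belong to the list that chose the sites and are a description. Since a site had to pass the calling threshold at 24 h, lower values than these are not among them.

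The groups differed in the ratio of the 24 h to the 0 h ZNF143 count, again a description from the list that chose the sites. These count ratios were likewise not scaled for the most frequent background, 0.42 reads at 0 h and 0.351 at 24 h. They describe the order of the groups and not how far ZNF143 fell in each relative to background. Where a CTCF peak was listed at 24 h, the ZNF143 count was a median 0.400 of its 0 h value (quartiles 0.325 and 0.5, n = 4810). Where none was listed it was 0.750 (0.482 and 0.914, n = 569). At ZNF143 peaks of ordinary background that had neither CTCF nor RAD21 in wild type and were listed at 24 h, the median was 0.818 (0.679 and 0.931, n = 5949). Both ZNF143 counts were near their ceilings at 1309 of the last, at 81 of the 569 and at 53 of the 4810. Without sites near either ceiling the medians were 0.393 with a 24 h CTCF peak (n = 4641), 0.667 without one (n = 467) and 0.757 for ZNF143 alone (n = 4276). In both versions kept sites with no listed 24 h CTCF had the intermediate median, and the interquartile range of each group overlapped that of its neighbour. The median local background in the 24 h ZNF143 list was 0.490 reads with a 24 h CTCF peak, 0.777 without one and 0.754 for ZNF143 alone. The count needed to pass the calling threshold thus differed between groups, and its part in this order was not tested. At high background the median was 0.934, which is about the ratio of the 2 ceilings, 58 over 62 reads. There 270 of 532 sites were near the ceiling in both lists, so little can be read from that value. Without sites near either ceiling the median at high background was 0.917 (quartiles 0.859 and 0.978, n = 207).

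CTCF counts at 24 h were lower, relative to 0 h, at sites not kept than at kept sites. The 24 h CTCF count was a median 0.206 of the 0 h count at kept sites of ordinary background (quartiles 0.170 and 0.250, n = 4803) and 0.179 at sites not kept (0.149 and 0.213, n = 7905). The ceilings were unlike, 48 reads at 24 h and 88 at 0 h, and at 85.2% of the 5168 kept sites with both peaks the 0 h count was above the 24 h ceiling, so the 24 h count could not have reached it. Without sites near either ceiling the medians at ordinary background were 0.200 (n = 3965) and 0.178 (n = 7629). The 2 CTCF libraries differed in background density, 3.88 against 12.75 reads per kb, so the loss of CTCF and the depth of the library cannot be told apart in these values. The order of kept and not kept sites lies within the same pair of libraries. Among triple sites with peaks in both CTCF-AID CTCF lists, kept sites had the higher 24 h rank in 10 of 10 groups of equal 0 h ratio, by 18.9 to 43.7 percentile points.

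**Figure D3:**
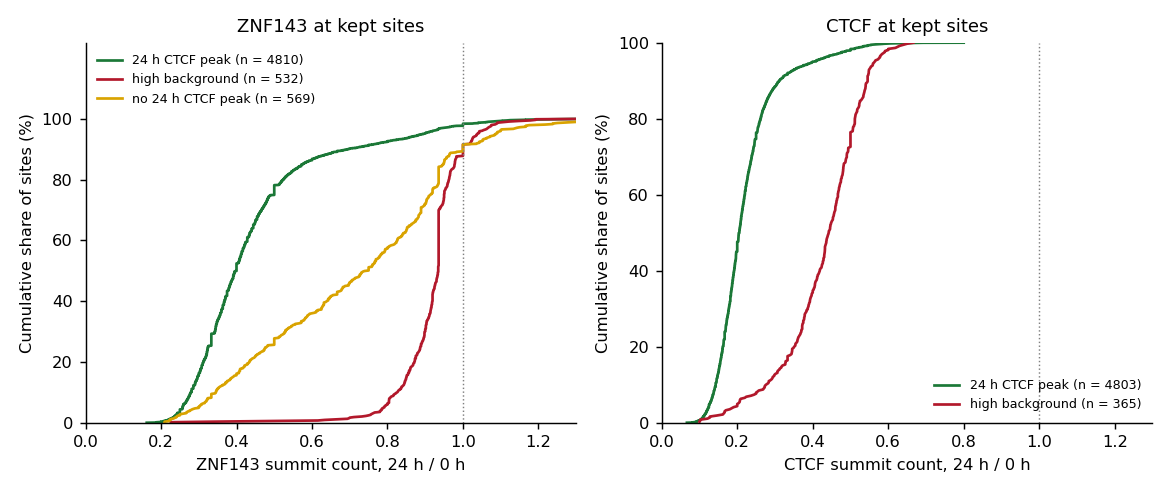
Cumulative share of kept sites (vertical axis, %) by the ratio of the summit count at 24 h to that at 0 h (horizontal axis) for ZNF143 (left) and CTCF (right), by group of kept sites. For ZNF143 the curve of sites with a 24 h CTCF peak crosses 50% at 0.400, that of sites without one at 0.750 and that of high-background sites at 0.934; for CTCF the first crosses at 0.206.

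The 585 kept sites of ordinary background without a 24 h CTCF peak had lower wild-type CTCF and RAD21 ratios than those with one. Their median CTCF ratio was 14.4 (quartiles 9.78 and 21.8) against 24.4 (21.6 and 26.4) at the 4814 sites with a 24 h CTCF peak. For RAD21 the medians were 9.94 and 22.5, and for ZNF143 12.4 and 14.7, with wider quartiles in the smaller group (9.34 and 17.8 against 12.4 and 17.0). Relative to the sites with a 24 h CTCF peak, CTCF was thus lower by more than ZNF143 was. Over all wild-type peaks the median ratio was 14.5 for CTCF and 13.7 for RAD21. CTCF at the 585 sites was therefore near the median of its list, and RAD21 was below that of its own. CTCF was listed at 0 h at 85.3% of these sites (82.2 to 88.1), 14.5 points (11.8 to 17.6) below the sites with a 24 h CTCF peak. In the knockout CTCF was listed at 94.2% (92.0 to 95.9) and RAD21 at 95.2% (93.2 to 96.8), 5.56 and 4.64 points lower. At 24 h the order was the opposite for ZNF143: the median ratio was 9.26 without and 8.14 with a 24 h CTCF peak. These 24 h values belong to the list that chose the sites and are a description. The median local background in that list was 0.777 and 0.490 reads in the same order. The count needed for a listed peak thus differed, and its part was not tested.

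The next 3 sites are given by the rule of highest 24 h ZNF143 ratio with no CTCF peak at 0 h or 24 h. At chr14:89017811-89017926 the ZNF143 ratio was 27.5 in wild type, 26.6 at 0 h and 27.1 at 24 h, while wild-type CTCF was 9.45 and wild-type RAD21 8.49. Knockout cells had ratios of 10.8 for CTCF and 11.8 for RAD21 there. ZNF143 ratios were similar in the 3 libraries, and the wild-type CTCF summit was 103 bp from that of ZNF143. At chr17:29233209-29233371 ZNF143 was 29.96, 26.5 and 26.4 in the same order. CTCF was 5.23 in wild type, from 6 reads at the summit, with no peak in the knockout, and RAD21 went from 10.9 in wild type to 11.4 in knockout cells. At chr11:67374185-67374408 ZNF143 was 30.1, 24.6 and 26.4. From wild type to knockout, CTCF went from 8.90 to 15.2 and RAD21 from 7.71 to 12.1, and all 4 summits lay 113 to 133 bp from the ZNF143 summit. At all 3 sites the wild-type CTCF and RAD21 ratios were far below that of ZNF143, and on chromosomes 14 and 11 the CTCF summit was offset from that of ZNF143. On chromosomes 14, 17 and 11 the ZNF143 summit counts were 53, 59 and 61 reads at 0 h. At 24 h they were 50, 55 and 57. All lay near the ceilings of 62 and 58 reads, so these ratios do not show whether ZNF143 changed.

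The strongest wild-type ZNF143 peak among kept sites lay at chr4:104020963-104021149. Its ZNF143 ratio was 34.6 in wild type, 28.8 at 0 h and 27.3 at 24 h. CTCF was 15.4 in wild type, 22.3 in the knockout, 18.3 at 0 h and 5.43 at 24 h, and RAD21 had 15.1 in wild-type and 19.4 in knockout cells. CTCF had 29 reads at its summit at 0 h and 5 at 24 h, and ZNF143 had 59 and 50. ZNF143 was at its ceiling of 54 reads in wild type and near the ceilings at 0 h and 24 h. Its ratios therefore do not show how far it changed. The wild-type CTCF and RAD21 summits lay 97 and 101 bp to one side of the ZNF143 summit.

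The next 3 by ZNF143 ratio had higher 24 h CTCF ratios. At chr1:147553615-147553724 ZNF143 was 32.8 in wild type, 26.2 at 0 h and 18.1 at 24 h, and CTCF was 25.8, 21.8 and 24.0 in the same order, with 18.3 in the knockout. RAD21 there had 24.2 in wild-type and 15.4 in knockout cells. CTCF counts were at the ceiling in wild type, the knockout and 0 h (88 reads), with 36 reads at 24 h, and RAD21 was at the ceiling in both lists, so these ratios do not show how far CTCF changed. At chr5:76164003-76164169 ZNF143 was 31.7, 27.2 and 21.1, and CTCF 28.4, 27.0 and 12.4 with 22.8 in the knockout, while RAD21 was 23.98 and 17.6. ZNF143 counts there were 52 reads in wild type and 60 at 0 h, near the ceilings of 54 and 62, and 34 at 24 h. Knockout RAD21 was at its ceiling of 44 reads. The ratios there do not show how far ZNF143 or RAD21 changed. At chr22:23827861-23827914 ZNF143 was 31.7, 29.95 and 28.4, CTCF 28.6, 26.8 and 19.2 with 24.7 in the knockout, and RAD21 16.8 and 21.5. All wild-type summits of CTCF and RAD21 at these 3 sites were within 15 bp of that of ZNF143, unlike at the strongest site.

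The highest 24 h CTCF ratio of any kept site, 31.3, was at chr3:196625624-196625770, which was also the site with the highest lowest percentile over the 9 lists (87.1). ZNF143 there was 30.6 in wild type, 27.2 at 0 h and 27.4 at 24 h, CTCF 28.9 in wild type, 23.3 in the knockout and 31.7 at 0 h, and RAD21 26.5 and 19.6. Its summit counts were at the ceiling in all 9 lists, so its counts do not show whether either protein changed. The next 2 by 24 h CTCF were chr12:104026482-104026572 and chr12:58299256-58299363, with 27.6 and 26.3. ZNF143 at the first was 16.2 in wild type, 20.7 at 0 h and 10.5 at 24 h, and at the second 23.99, 27.0 and 14.4. CTCF was 22.9 and 20.3 at 0 h at these sites, 29.7 and 28.2 in wild type, and 20.5 and 19.5 in the knockout, and RAD21 was 22.3 and 23.03 in wild type and 19.1 and 15.8 in the knockout. CTCF was at its ceiling in wild type, the knockout and 0 h (88 reads) at both. Knockout RAD21 was at its ceiling at both, and wild-type RAD21 at the second. These ratios therefore do not show how far CTCF or RAD21 changed.

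The next 2 sites by lowest percentile, at 84.9 and 82.5, were chr3:56528830-56528976 and chr11:8008565-8008758. At the first, ZNF143 was 26.8 in wild type, 24.2 at 0 h and 20.2 at 24 h, CTCF 25.6, 27.4 and 12.0, and RAD21 23.02, with knockout ratios of 24.2 (CTCF) and 21.6 (RAD21). At the second, ZNF143 was 27.3, 26.3 and 25.9, CTCF 28.9, 27.4 and 11.7, and RAD21 25.9, with 23.5 and 21.8 in the knockout. ZNF143 counts at the first were 45 reads at 0 h and 31 at 24 h and CTCF counts 72 and 14, and at the second 54 and 46 against 69 and 13. CTCF and RAD21 summits of the second lay 74 to 107 bp from the wild-type ZNF143 summit in every list, whereas the other 2 ZNF143 summits were within 7 bp of it.

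At the limit of the rule, chr9:139622627-139622744 overlapped its 24 h ZNF143 peak by 1 bp and chr2:121070860-121071002 by 3 bp. Their 24 h ZNF143 ratios were 5.66 and 5.52, from 7 reads each, with summits 107 and 90 bp from the wild-type ones, against wild-type ratios of 14.6 and 15.9 and 0 h ratios of 11.5 and 14.6. CTCF at these sites was 23.7 and 25.2 in wild type, 22.7 and 22.7 in the knockout, 20.5 and 23.5 at 0 h and 6.36 and 7.04 at 24 h, and RAD21 had 10.9 and 21.9 in wild-type and 9.74 and 17.0 in knockout cells. Just outside it, chr19:49711693-49711769 was 4 bp from the nearest 24 h ZNF143 peak, with ZNF143 ratios of 13.2 in wild type and 14.1 at 0 h and a CTCF ratio of 13.0 at 24 h. The site chr5:139726381-139726467 was 5 bp away, with ZNF143 ratios of 10.2 and 7.53 and no CTCF peak at 24 h. Such cases were few: 10 of 5946 kept sites overlapped by under 10 bp, the median overlap was 54 bp, 23 of the sites not kept had a gap under 50 bp, and their median gap was 55400 bp. The 5946 sites met 5926 different 24 h ZNF143 peaks, and 38 of them shared one with another.

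**Figure D4:**
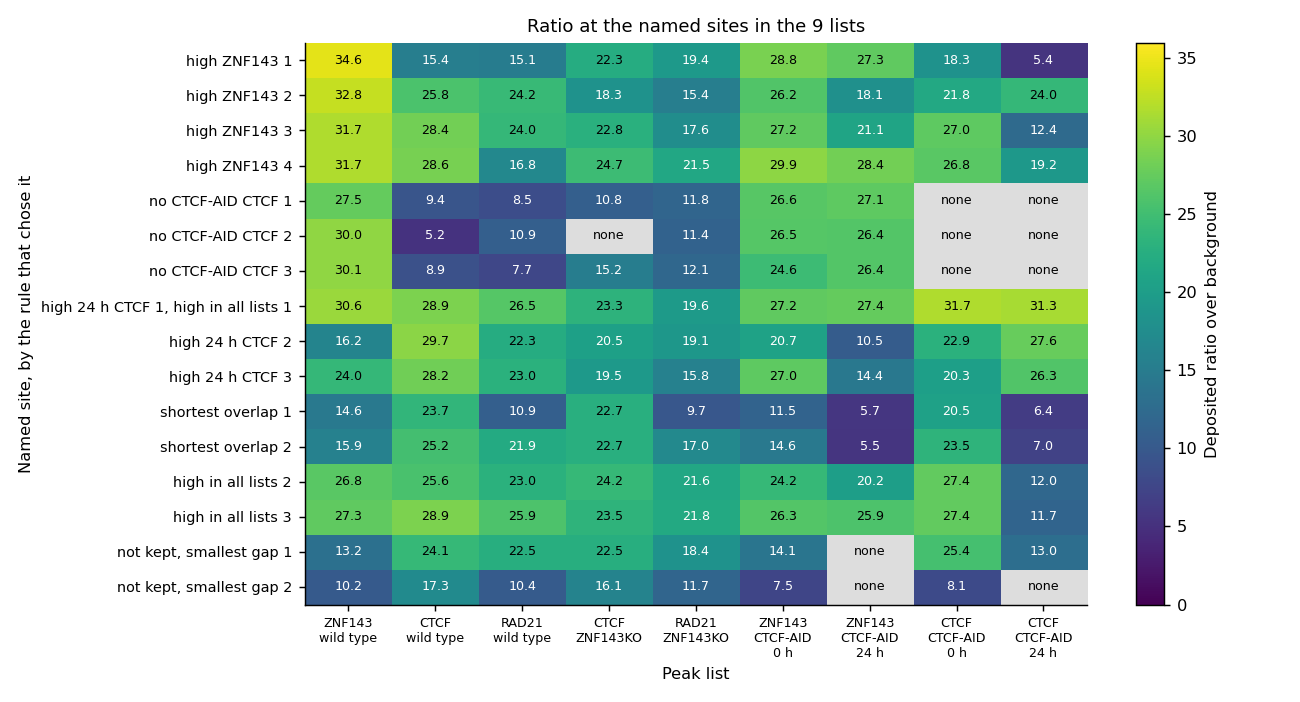
Deposited ratio over background (colour and printed value, no unit) in the 9 lists (horizontal axis) at the 14 kept sites and 2 sites not kept that are named in the text (vertical axis, in the order of their rule); grey marks no peak. The 3 sites without CTCF in the CTCF-AID lists hold ZNF143 ratios of 24.6 to 30.1 in all 3 ZNF143 lists.

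The distances of ZNF143 summits from CTCF and RAD21 summits at kept sites were close to those at other triple sites. The wild-type ZNF143 summit lay a median 10 bp from the CTCF summit (quartiles 3 and 21) and 14 bp from the RAD21 summit (6 and 27). Sites not kept had the same medians, 10 bp (4 and 18) and 14 bp (6 and 24), a difference of 0 bp in each (intervals 0 to 1 and -1 to 0). CTCF and RAD21 summits were 17 bp apart at kept and 15 bp apart at other sites. The 17 bp includes the high-background sites, where this median was 4 bp. At ordinary background it was 19 bp at kept sites (quartiles 7 and 37) and 15 bp at the others (7 and 29). Between the 24 h and the wild-type ZNF143 summit the median distance was 10 bp, and it was 11 bp from the wild-type CTCF summit (4 and 26), against 10 bp before, and the 0 h summit was 8 bp from the wild-type one. Sites without a 24 h CTCF peak had a wider spread, with a median of 12 bp between ZNF143 and CTCF and quartiles of 3 and 36.

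In the knockout the distance between CTCF and RAD21 summits at kept sites was shorter, at 14 bp (5 and 30) against 18 bp (6 and 36) in wild type over the 5742 sites with all 4 summits, a change of -4 bp (-5.41 to -3). At sites not kept it went from 15 to 13 bp (n = 20064). At the 536 ordinary-background sites without a 24 h CTCF peak it went from 13 to 8 bp. Whether the change differed between kept and other sites was not tested. The change was -2 bp with a reciprocal overlap of 50%. The knockout libraries had the highest background densities of the 9.

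The ratios of CTCF and RAD21 at kept sites, ranked among triple sites, depended on how strength was measured in the knockout. By the deposited ratio at ordinary background, the median percentile of CTCF at kept sites went from 73.8 (wild type) to 53.2 (knockout; n = 5353), and that of RAD21 from 64.2 to 40.8 (n = 5364). At sites not kept they were 44.0 and 49.4 for CTCF and 46.7 and 52.6 for RAD21. The median of the changes at single kept sites was smaller, -14.25 for CTCF and -15.66 for RAD21. At sites not kept it was 2.70 and 2.35. Kept sites ranked below other triple sites of equal wild-type ratio in 10 of 10 groups for both proteins. By summit count the CTCF percentile was 78.8 and 76.0, that of RAD21 rose from 72.5 to 86.6, and kept sites ranked lower in 3 of 10 groups for each. Many of these counts were at or near the ceiling. By summit count without sites near the ceiling, the CTCF percentile went from 43.9 to 16.7 (n = 665), that of RAD21 from 40.8 to 39.6 (n = 1026), and kept sites ranked lower in 9 of 10 groups for each. For CTCF this left 665 of 5353 kept sites and 6385 of 20079 sites not kept. Since sites were also dropped by their knockout counts, those left were ones of lower knockout count, and no change in strength is read from them. Over all triple sites, the RAD21 percentile by summit count changed by -4.89. Median knockout summit counts at kept sites, 47 for CTCF and 43 for RAD21, were close to the ceilings of 50 and 44, and the local background was higher than at other triple sites (1.21 against 0.975 reads for CTCF, 1.51 against 1.16 for RAD21). In untreated CTCF-AID cells the CTCF percentile by ratio went from 72.0 to 78.6, with a median change at single sites of 4.22.

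The 547 sites of high background differed from the rest in nearly every measure. Their median local background was 4.77 reads in the wild-type ZNF143 library against 0.324 at kept sites with a 24 h CTCF peak, and the median was also raised in each of the other 8 lists, from 2.90 reads in CTCF at 24 h to 12.9 in CTCF at 0 h. Ratios were low, with medians of 6.32 for ZNF143, 6.10 for CTCF and 5.78 for RAD21 in wild type. Knockout CTCF was listed at 82.6% of them (79.2 to 85.7), knockout RAD21 at 79.2% and 24 h CTCF at 74.4%. Summits of ZNF143 and CTCF were a median 3 bp apart, and 91.4% (88.7 to 93.6) had another wild-type ZNF143 peak within 2000 bp. The 5 fullest bins of 1 Mb held 255 of them, with 96 between 42 and 43 Mb of chromosome 10. The others were at 92 to 93 Mb of chromosome 2 (43 sites), 49 to 50 Mb of chromosome 4 (40), 51 to 52 Mb of chromosome 11 (39) and 61 to 62 Mb of chromosome 7 (37). Sites of this kind were 0.308% of those not kept, and 89.8% of all 609 triple sites with such background were kept. The part of this background in the 24 h ZNF143 calls was not tested.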

How the data were processed

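The deposited files are 9 ChIP-nexus peak lists in the narrow-peak layout, 1 per sample. The submitters' processing notes name cutadapt 2.10, Bowtie2 2.3.5.1, SAMtools 1.12, MACS2 2.2.7.1 and deepTools, and the builds GRCh37 and hg19, without roles; caller settings, filters and any pooling are not given in the sources used here. The deposited score of each peak is the authors' and was not used. The signal column was taken as a ratio (fold) deposited by the authors, of the summit over its background, with 1 added to both. The −log10 p and −log10 q values are the authors' deposited ones. Ratios were used to rank or group peaks within a list; where ratios of several lists stand side by side they describe a site only, since they depend on each library's depth and ceiling.

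Groups came from the sample titles. Overlap meant at least 1 bp, and where several peaks of a list overlapped a site, the one of longest overlap was used. Percentiles rank a peak within its list, or within triple sites where so stated. Shares carry exact (Clopper-Pearson) 95% intervals and differences Newcombe intervals; medians carry order-statistic intervals, combined for differences as if independent. The summit count was the whole number that reproduced ratio and −log10 p together. The code was tested on simulated data. Versions were scipy 1.17.1, pandas 2.3.3 and numpy 2.4.6 under Python 3.11.15, with figures from matplotlib 3.10.9.

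The named sites are the 4 kept sites of highest wild-type ZNF143 ratio, the 3 of highest 24 h ZNF143 ratio with no CTCF peak at 0 h and 24 h, the 3 of highest 24 h CTCF ratio, the 3 in all 9 lists with the highest lowest percentile, the 2 with the shortest overlap and the 2 sites not kept with the smallest gap. The members, lists and named sites were chosen with earlier results of these data known. Planned comparisons by gene start and DNA motif, and sites to be named by them, were not run, as an hg19 genome and annotation were not used here.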

Additional observations from a re-analysis of the deposited data

Results flagged for a closer look

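Outside chromosomes 1 to 22 and X, the same rule found 95 sites on mitochondrial and unplaced sequences, in data that the comparisons above do not use. They were 59.4% (51.3 to 67.1) of the 160 triple sites there, among 262 wild-type ZNF143 peaks. Their triple sites had a median local background of 1.44 reads in the wild-type ZNF143 library. The part of that background in the count was not tested.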

How the results depend on the processing

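Of 55 alternative values of 12 results, 22 were close to the main value (for shares and differences, inside its 95% interval), 31 moved and 2 reversed. Leaving out high-background sites, ranking by summit count, leaving out sites near the ceiling (a count of at least 80% of it) and the other background limits were chosen after the data were seen. Under the reciprocal 50% criterion 27.0% of triple sites were kept, and differences of kept minus other sites were 25.1 points for ZNF143 at 0 h, 3.79 for CTCF at 0 h, 41.6 for CTCF at 24 h, and, reversed, 15.4 for knockout CTCF and 12.3 for knockout RAD21. Summit distances differed by -2 bp (ZNF143 to CTCF) and -3 bp (ZNF143 to RAD21), and the knockout change was -2 bp. Without high-background sites the share kept was 21.2%, and the differences were 9.12 points (CTCF, 0 h), 49.8 (CTCF, 24 h), -0.777 and -0.355 (knockout CTCF and RAD21) and 1 bp (ZNF143 to RAD21). At a −log10 q of at least 5 the share was 21.7%, and the differences were 36.8 (ZNF143, 0 h) and 6.61 (CTCF, 0 h). With summits within 50 bp the share was 21.4%, the 24 h CTCF difference 49.7 and the ZNF143 to CTCF distance -1 bp. Weighted to equal ZNF143 ratio, the differences were 16.99 (ZNF143, 0 h), 1.07 (CTCF, 0 h), 26.5 (CTCF, 24 h) and 1 bp (ZNF143 to RAD21). Over all triple sites, the change of the kept sites' median percentile from wild type was -21.8 for knockout CTCF, -22.8 for knockout RAD21 and 7.21 for CTCF at 0 h. These are differences of 2 medians. The median of the changes at single sites was smaller, -11.53, -12.56 and 2.94 in the same order. By summit count the change of the median percentile was -2.42, -4.89 (interval -4.89 to 14.2) and 2.79, and without sites near the ceiling -8.09, -9.40 and 10.2. With both choices together it was -29.3, -2.02 and 6.785. High-background sites numbered 973 at 5 times and 354 at 20 times the most frequent background. Except where the setting itself removed peaks or sites, the cause was not tested. Leaving out a replicate was not possible with 1 library per group. Libraries could not be paired as replicates for the same reason, whereas single sites could be followed between lists. Other windows for gene starts and motifs were not run.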

Other observations

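Kept sites were unevenly spread over the chromosomes. At ordinary background, 30.2% of 1039 triple sites on chromosome 19 were kept, against 6.00% of 816 on chromosome 4, 10.0% of 747 on X and 13.2% of 507 on chromosome 18. The shares expected from each chromosome's numbers in the 10 groups of wild-type ZNF143 ratio were 28.5%, 8.45%, 7.86% and 14.2% in the same order. Chromosome 3 lay furthest below its expected share, at 20.2% of 1763 sites against 27.2%, a comparison singled out after its value was seen.

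Another wild-type ZNF143 peak lay within 2000 bp at 15.7% (14.7 to 16.7) of kept sites of ordinary background and at 8.11% (7.73 to 8.49) of the corresponding sites not kept. It was 28.2% (24.6 to 32.0) where no CTCF peak was listed at 24 h and 14.1% (13.2 to 15.1) where one was. ZNF143 peaks with neither CTCF nor RAD21 that kept ZNF143 had such a neighbour in 23.04% of cases (21.99 to 24.1) at ordinary background.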
